A study of Mus musculus with 12 samples.

Results

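Genes for the uptake and beta oxidation of fatty acids were followed in mouse muscle, as a set of 38 listed symbols that runs from lipoprotein lipase at the capillary wall to the flavoproteins that hand electrons to the respiratory chain. The members were chosen by symbol, and each was read from its brightest probe set that is annotated to that gene alone. Of the 38, 34 passed the signal filter and were tested, among 11345 genes tested in all. Decr2, a peroxisomal dienoyl-CoA reductase, lay below the filter with a mean log2 signal of 2.84. Acsl1 and Peci had no probe set under those names in the annotation used, and RefSeq lists Peci as an older symbol of Eci2, which is itself a member. Cpt1b, the muscle form of carnitine palmitoyltransferase 1, was read only by a probe set shared between several genes and is given no value here.

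Muscle came from 12 mice aged 16 weeks, 3 in each of 4 groups. Wild-type (WT) mice and GPR120 knockout (KO) mice, which by their labels lack a membrane receptor that senses long-chain fatty acids, ate either a normal diet (ND here) or one high in fat (HFD). Both genotypes shared a mixed 129/Sv and C57BL/6 background. The questions are what high fat diet did to these transcripts in WT and in KO, whether WT and KO muscle differed on the same food, and whether the size of the diet effect depended on genotype. How the knockout allele was made, the length of the diet, the sex of the mice and the muscle sampled are not stated in the labels.

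Muscle takes up fatty acids that lipoprotein lipase frees from circulating triglyceride, aided by the membrane protein CD36 and by binding and transport proteins. Acyl-CoA synthetases activate them, the carnitine shuttle carries the acyl groups into mitochondria, and a repeating cycle of dehydrogenation, hydration, a further dehydrogenation and thiolysis shortens the chain. Auxiliary enzymes deal with double bonds, electron transfer flavoprotein carries electrons onward, and peroxisomes shorten very long chains. Many of these genes are known targets of the PPAR family of fatty-acid-sensing nuclear receptors.

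Values are MAS5 signals deposited on the log2 scale, and each array measured 1 mouse. The median signal per array ranged from 3.87 to 4.16. Arrays of the same group correlated at a mean of 0.966 to 0.975 over the tested genes. Ffar4, which encodes GPR120, gave too little signal for a check of genotype: the mean signal of its probe set was 1.61, below the filter, and its group means were 0.23 and 1.41 in WT and 2.48 and 2.31 in KO (ND and HFD). All 8 skeletal muscle markers passed the filter, whereas the liver markers Alb, Apoa1, Ttr and Fgb did not. Cyp2e1, a cytochrome P450 listed with the liver markers, did pass, with values from 7.18 to 10.93, and fell by 2.36 with HFD in WT (adjusted p = 0.0146). Its part in the results was not tested. A change in these signals cannot distinguish fewer cells of a type from less RNA per cell. Precision is limited by having 3 arrays per group, and since the mouse numbers of the groups cover separate ranges, group cannot be told apart from cohort.

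On the high fat diet, genes for fatty acid oxidation were higher in muscle of both genotypes. In WT mice 19 of the 34 tested members rose (55.9%) and none fell, against 3.07% of all tested genes called higher and 2.99% called lower, at a Benjamini-Hochberg adjusted p of 0.05 in limma. In KO mice 12 rose (35.3%) and none fell, against 2.66% and 1.88% of all genes. At an unadjusted p of 0.05, 25 members were higher in WT (73.5%, against 13.2% of all genes) and 20 in KO (58.8%, against 12.1%), and 0 were lower in either. The median log2 difference of the members was 0.45 in WT, where that of all tested genes was 0.04, and 0.33 in KO, where it was 0.05. Averaged over the genotypes 23 members rose, 67.6% against 7.49% of all genes.

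The changes were modest in size and close in range among mice. Averaged over the 34 members, each mouse's deviation from the mean of all 12 arrays was −0.29 to −0.25 in WT on ND and 0.16 to 0.22 in WT on HFD. In KO mice it was −0.17 to −0.10 with ND and 0.14 to 0.31 on HFD. All 6 mice on HFD therefore lay above all 6 on ND in this mean, and the KO mice on ND lay above the WT mice on ND. Gene by gene, the 3 WT mice on HFD all exceeded the 3 on ND for 23 members, where 15.7% of all genes did so. In KO that count was also 23, against 16.3% of all genes. For 17 members all 6 mice on HFD were above all 6 on ND, 50% of the members against 2.58% of all genes.

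**Figure D1:**
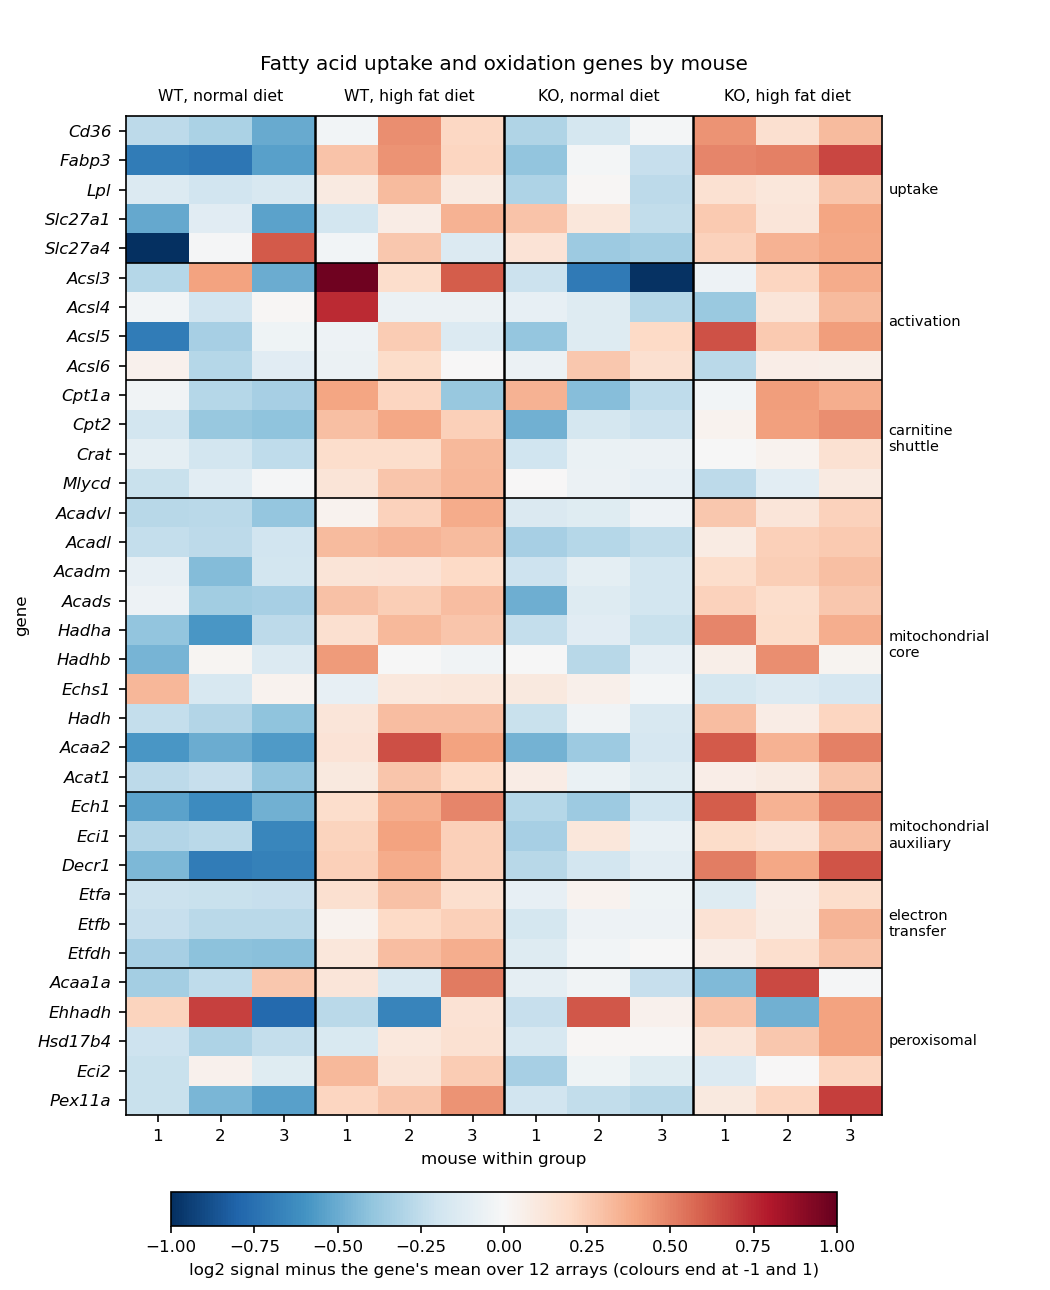
Log2 deviation of each tested member (rows, ordered by step) from its own mean over the 12 arrays, with 1 column per mouse. The columns of both high fat diet groups are mostly above the mean and those of WT on ND mostly below it, with per-mouse means of −0.29 to −0.25 in the latter.

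Of the 5 uptake genes tested, 2 rose in WT (Cd36 and Fabp3) and 2 in KO (Fabp3 and Lpl). Fabp3, the muscle fatty acid binding protein that carries fatty acids through the cytosol, read 12.09, 12.07 and 12.25 in WT on ND and 13.07, 13.24 and 13.01 in WT on HFD. In KO it read 12.40, 12.77 and 12.56 on ND and 13.28, 13.29 and 13.46 on HFD. The diets did not overlap in either genotype, and on each diet every KO mouse was above every WT mouse. The difference with diet was 0.97 ± 0.10 SE in WT (1.96-fold, adjusted p = 0.00022) and 0.77 ± 0.10 in KO (1.70-fold, adjusted p = 0.00197).

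Cd36, the membrane protein that takes up long-chain fatty acids, read 10.26, 10.20 and 10.01 in WT on ND and 10.49, 10.98 and 10.72 on HFD. In KO, Cd36 read 10.22, 10.34 and 10.50 on ND and 10.97, 10.68 and 10.84 on HFD. The diet groups did not overlap in either genotype (WT difference 0.57 ± 0.13, adjusted p = 0.0197), and the KO difference of 0.47 ± 0.13 did not pass (adjusted p = 0.0513). Its probe sets did not read alike. A second one differed by 0.83 with diet in WT and 0.56 in KO. It passed in both when every probe set was fitted in limma, a test added after seeing the data (adjusted p = 0.000716 and 0.00952). Another differed by 0.11 in WT and 0.27 in KO and passed in neither. Lpl, the lipase that frees fatty acids from lipoproteins, read 12.65, 12.59 and 12.63 in WT on ND and 12.88, 13.10 and 12.87 in WT on HFD, and 12.47, 12.80 and 12.52 in KO on ND and 12.93, 12.90 and 13.06 in KO on HFD. Its diet groups were apart in both genotypes, and it stood on either side of the threshold, with 0.33 ± 0.09 in WT (adjusted p = 0.0510) and 0.37 ± 0.09 in KO (adjusted p = 0.0406). The fatty acid transport proteins Slc27a1 and Slc27a4 passed in neither genotype, with differences of 0.47 and 0.21 in WT and 0.21 and 0.51 in KO.

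Of the 5 acyl-CoA synthetases listed, Acsl1 had no probe set, and none of the 4 tested passed in either genotype in limma. At an unadjusted p of 0.05, 1 was higher in WT and 2 in KO. These enzymes join a fatty acid to coenzyme A before it is oxidised or stored. Acsl3 was the one that passed in the mean of both genotypes, at 0.76 ± 0.18 (adjusted p = 0.0155), with 0.71 ± 0.26 in WT and 0.82 ± 0.26 in KO. Acsl5 differed by 0.38 and 0.55, Acsl4 by 0.28 and 0.19, and Acsl6 by 0.16 and −0.17 in WT and KO respectively, none of which passed.

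Of the 4 carnitine shuttle genes tested, 2 rose in WT and 1 in KO. Cpt2, the inner membrane transferase that returns acyl groups to coenzyme A, read 9.06, 8.87 and 8.84 in WT on ND and 9.55, 9.63 and 9.48 on HFD. In KO it read 8.76, 9.07 and 9.03 on ND and 9.28, 9.65 and 9.71 on HFD. Neither genotype's diet groups overlapped, and the differences were nearly equal at 0.63 ± 0.13 (adjusted p = 0.0141) and 0.60 ± 0.13 (adjusted p = 0.0218). A dim second probe set of Cpt2, with a mean signal of 4.52, went the other way in WT (−0.71 ± 0.78, adjusted p = 0.661 among all probe sets), so the mean of both probe sets gave −0.04. Crat, carnitine acetyltransferase, read 9.90, 9.81 and 9.74 in WT on ND and 10.17, 10.17 and 10.32 in WT on HFD, and 9.80, 9.93 and 9.94 in KO on ND and 9.99, 10.03 and 10.15 in KO on HFD. Its diet groups were apart in both genotypes, more widely in WT. It rose in WT (0.41 ± 0.09, adjusted p = 0.0181) and differed by 0.17 in KO. A second probe set of Crat, with a mean signal of 9.29, differed by 0.27 in WT and 0.31 in KO. It passed in neither among all probe sets in limma (adjusted p = 0.352 and 0.326). Nor did a dimmer one, at 0.48 and 0.12 (adjusted p = 0.170 and 0.805). Cpt1a, the liver-type outer membrane transferase, did not pass, at 0.30 and 0.36. Mlycd, which breaks down the transferase inhibitor malonyl-CoA, did not pass either, at 0.36 ± 0.11 in WT and −0.05 in KO.

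**Figure D2:**
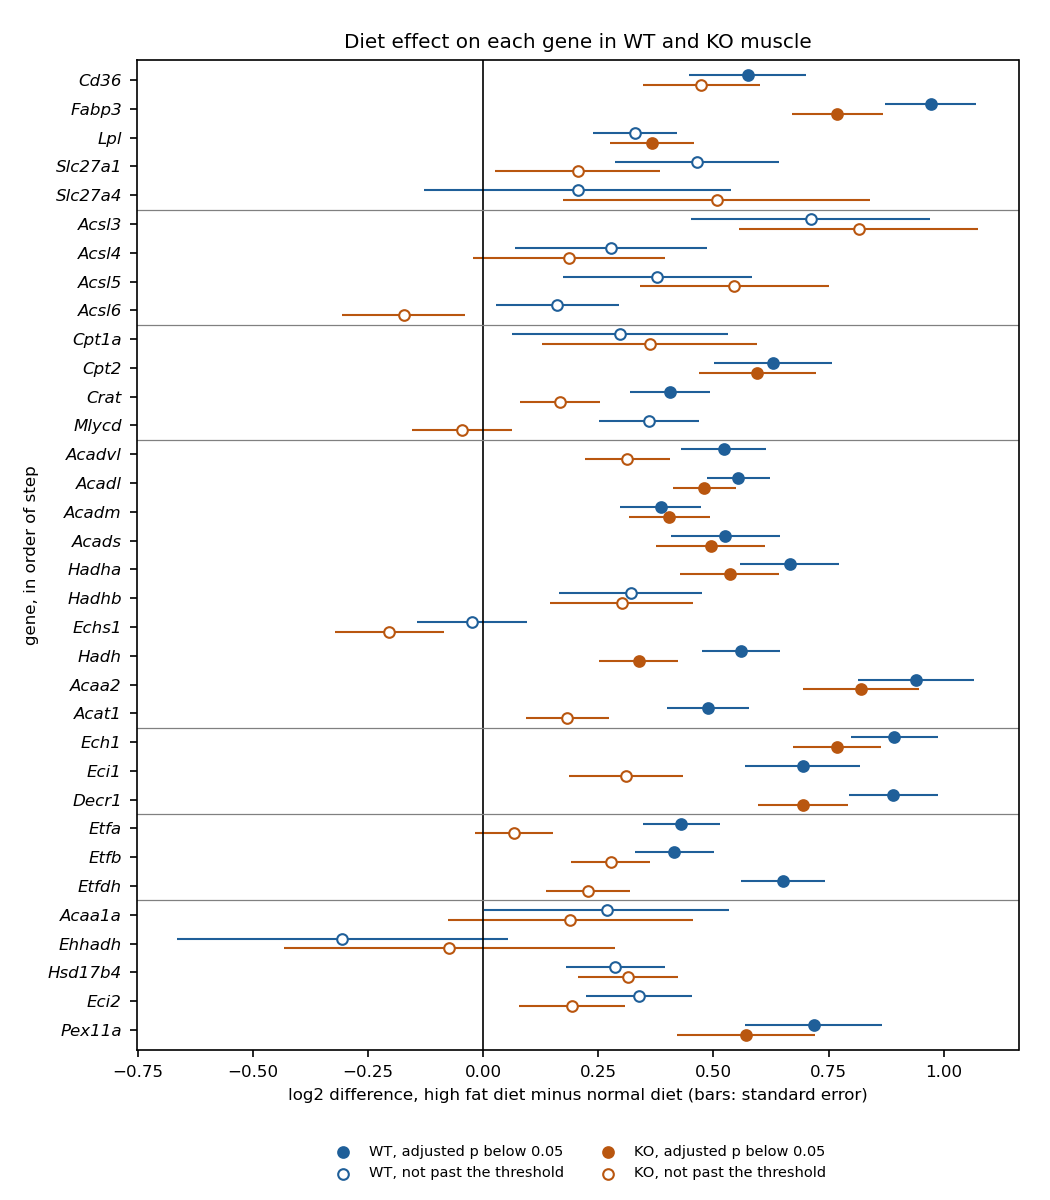
Log2 difference between HFD and ND for each tested member, by step, in WT and KO mice, where bars are the SE of 3 against 3 mice and filled points have an adjusted p under 0.05. The mitochondrial genes hold most of the filled points, 14 of 16 in WT and 8 of 16 in KO, and Fabp3 has the highest WT value at 0.97.

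Genes of mitochondrial oxidation, auxiliary and electron transfer genes included, made up 14 of the 19 members that rose in WT and 8 of the 12 in KO. Of the 10 core genes of the cycle 8 rose in WT (median difference 0.52) and 6 in KO (median 0.37). The 3 chain-length-specific acyl-CoA dehydrogenases Acadl, Acadm and Acads, which make the first double bond of the cycle, rose in both genotypes. Acadl, for long chains, read 11.55, 11.52 and 11.59 in WT on ND and 12.10, 12.12 and 12.10 on HFD. In KO, Acadl read 11.45, 11.50 and 11.54 on ND and 11.87, 12.02 and 12.04 on HFD. The replicates lay close together and the diets were well apart, with differences of 0.55 ± 0.07 (adjusted p = 0.000827) and 0.48 ± 0.07 (adjusted p = 0.00321).

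Acadm, for medium chains, read 11.65, 11.30 and 11.55 in WT on ND and 11.86, 11.87 and 11.93 in WT on HFD, and 11.53, 11.64 and 11.55 in KO on ND and 11.91, 11.98 and 12.03 in KO on HFD. Its diet groups were apart in both genotypes, at 0.39 (adjusted p = 0.0219) and 0.40 (adjusted p = 0.0225). Acads, for short chains, read 8.56, 8.26 and 8.28 in WT on ND and 8.90, 8.86 and 8.92 in WT on HFD, and 8.12, 8.48 and 8.42 in KO on ND and 8.84, 8.79 and 8.88 in KO on HFD. Here too the diets were apart, at 0.53 (adjusted p = 0.0212) and 0.49 (adjusted p = 0.034). Acadvl, for very long chains, read 10.42, 10.43 and 10.31 in WT on ND and 10.73, 10.93 and 11.07 in WT on HFD, and 10.55, 10.58 and 10.65 in KO on ND and 10.97, 10.82 and 10.93 in KO on HFD. It was separated by diet in both genotypes as well. Acadvl rose in WT by 0.52 ± 0.09 (adjusted p = 0.00658), and its KO difference of 0.31 ± 0.09 did not pass (adjusted p = 0.0692).

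The later steps of the cycle followed the same pattern with an exception. Hadha, the subunit of the trifunctional protein that hydrates and dehydrogenates long chains, read 9.18, 8.99 and 9.31 in WT on ND and 9.73, 9.90 and 9.85 in WT on HFD, and 9.34, 9.46 and 9.35 in KO on ND and 10.06, 9.75 and 9.94 in KO on HFD. The diets did not overlap in either genotype, and Hadha rose by 0.67 ± 0.11 in WT (adjusted p = 0.00467) and 0.54 ± 0.11 in KO (adjusted p = 0.0167). Hadh, the dehydrogenase for shorter chains, read 12.23, 12.17 and 12.06 in WT on ND and 12.59, 12.78 and 12.78 in WT on HFD, and 12.24, 12.43 and 12.31 in KO on ND and 12.78, 12.54 and 12.68 in KO on HFD. Its diet groups were likewise apart, and it rose by 0.56 ± 0.09 in WT (adjusted p = 0.00311) and by 0.34 in KO (adjusted p = 0.042). Acaa2, the thiolase that ends each round, had the largest difference of the core genes. It read 9.43, 9.51 and 9.44 in WT on ND and 10.14, 10.65 and 10.41 on HFD. In KO it read 9.54, 9.65 and 9.84 on ND and 10.62, 10.36 and 10.51 on HFD. Both pairs of diet groups were separate, at 0.94 ± 0.13 in WT (1.92-fold, adjusted p = 0.00123) and 0.82 ± 0.13 in KO (1.77-fold, adjusted p = 0.00398).

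Acat1, the thiolase that also works on ketone bodies, read 10.64, 10.68 and 10.51 in WT on ND and 11.01, 11.18 and 11.11 in WT on HFD, and 10.98, 10.84 and 10.78 in KO on ND and 10.97, 11.00 and 11.18 in KO on HFD. The WT groups were well apart and the KO groups overlapped. Acat1 rose in WT by 0.49 ± 0.09 (adjusted p = 0.00845), and its KO difference was 0.18 (adjusted p = 0.280). Echs1, the short-chain enoyl-CoA hydratase, was the exception. It read 9.38, 8.88 and 9.08 in WT on ND, 8.97, 9.15 and 9.16 in WT on HFD, 9.14, 9.10 and 9.03 in KO on ND, and 8.87, 8.91 and 8.88 in KO on HFD. The WT groups overlapped (−0.02, adjusted p = 0.936). The KO mice on HFD were all below those on ND, but that difference of −0.20 did not pass (adjusted p = 0.370). It was the only member of the 34 whose KO groups were apart in the lower direction, where 10.2% of all genes were.

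Hadhb, the thiolase subunit of the trifunctional protein, did not pass at its brightest probe set, at 0.32 ± 0.15 in WT (adjusted p = 0.237) and 0.30 in KO. Its next brightest probe set, with a mean signal of 11.7, differed by 0.64 ± 0.08 in WT and 0.48 ± 0.08 in KO (adjusted p = 0.000808 and 0.00576 over all 19387 passing probe sets with 1 gene), a test added after seeing the data. In the same limma fit a dimmer probe set of Hadhb, with a mean signal of 5.67, differed by 0.84 ± 0.19 in WT (adjusted p = 0.0222). In KO it differed by −0.07 (adjusted p = 0.899). Over all members there were 27 other passing probe sets of 19 genes, and 24 of them had the sign of the one used in WT and 23 in KO. In that added test 10 of the 27 were called higher in WT and 5 in KO, and 0 were called lower.

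In RefSeq on GRCm38.p6, 30 of the 38 listed symbols had promoter windows. Hadha and Hadhb start back to back on chromosome 5 with 272 bases between their starts, so the windows share 228 upstream bases. The 250 bases before the start are printed 5′ to 3′ on the gene's own strand. They are given for 6 members that differ in outcome at the brightest probe set. Fabp3 and Acadm rose there in both genotypes, Cd36 and Acadvl passed in WT alone, and Hadhb and Echs1 passed in neither. A further probe set of Cd36 and one of Hadhb passed in both genotypes, as given above. Capitals mark AGGTCA on either strand (TGACCT is its reverse complement), the half-site that nuclear receptors such as PPARs recognise.
Fabp3, chr4:130308488-130308737, plus strand: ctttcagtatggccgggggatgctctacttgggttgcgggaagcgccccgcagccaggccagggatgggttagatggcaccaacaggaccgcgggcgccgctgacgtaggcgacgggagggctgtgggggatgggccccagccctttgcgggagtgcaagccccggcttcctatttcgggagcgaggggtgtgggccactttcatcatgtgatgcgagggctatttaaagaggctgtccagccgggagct
Cd36, chr5:17835897-17836146, minus strand: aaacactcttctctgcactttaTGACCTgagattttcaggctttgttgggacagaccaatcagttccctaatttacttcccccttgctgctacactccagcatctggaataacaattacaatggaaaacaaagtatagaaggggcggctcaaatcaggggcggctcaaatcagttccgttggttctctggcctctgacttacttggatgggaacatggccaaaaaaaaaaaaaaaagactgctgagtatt
Acadm, chr3:153944644-153944893, minus strand: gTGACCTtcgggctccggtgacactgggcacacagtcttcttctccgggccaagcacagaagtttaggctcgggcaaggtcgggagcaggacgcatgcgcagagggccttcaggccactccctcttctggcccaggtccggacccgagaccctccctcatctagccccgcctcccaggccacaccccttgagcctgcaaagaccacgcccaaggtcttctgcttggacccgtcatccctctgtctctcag
Acadvl, chr11:70015429-70015678, minus strand: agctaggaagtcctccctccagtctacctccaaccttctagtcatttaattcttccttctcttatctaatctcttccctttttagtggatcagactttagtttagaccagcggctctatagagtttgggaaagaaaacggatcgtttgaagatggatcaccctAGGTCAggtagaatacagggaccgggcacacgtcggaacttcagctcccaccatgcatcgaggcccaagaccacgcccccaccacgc
Hadhb, chr5:30155003-30155252, plus strand: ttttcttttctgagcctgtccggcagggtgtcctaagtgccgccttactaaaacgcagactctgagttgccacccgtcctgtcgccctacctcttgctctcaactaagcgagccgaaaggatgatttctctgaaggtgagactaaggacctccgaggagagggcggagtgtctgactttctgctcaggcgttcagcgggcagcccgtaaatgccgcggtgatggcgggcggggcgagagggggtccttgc
Echs1, chr7:140116422-140116671, minus strand: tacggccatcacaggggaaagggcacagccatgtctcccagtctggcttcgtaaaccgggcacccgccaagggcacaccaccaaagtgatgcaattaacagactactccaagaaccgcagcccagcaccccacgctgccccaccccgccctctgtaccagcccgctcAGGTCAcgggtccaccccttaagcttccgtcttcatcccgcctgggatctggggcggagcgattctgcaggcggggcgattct
The half-site letters occurred in 14.0% of 32851 promoters of this length. Among members, 3 of 15 windows of called genes and 3 of 17 windows of genes not called held them, so Echs1 carries a match as Acadm, Acadvl and Cd36 do, while Fabp3 and Hadhb have none in this window. Called here refers to the brightest probe set, so Hadhb counts as not called. The PPAR response element is a direct repeat of the half-site with 1 base between. Its exact letters were in none of the members' windows and in 0.0335% of all promoters. Inexact forms of the repeat and sites outside the window were not searched. A match is a description of the letters, not a binding site, and the lack of one does not show that no element is present.

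All 3 auxiliary enzymes rose in WT (median 0.89) and 2 in KO. Ech1, which shifts double bonds in dienoyl-CoA, read 10.90, 10.81 and 10.96 in WT on ND and 11.62, 11.80 and 11.93 on HFD. In KO it read 11.16, 11.08 and 11.24 on ND and 12.04, 11.79 and 11.94 on HFD, so the diets were separate in both genotypes. The differences were 0.89 ± 0.09 (adjusted p = 0.000288) and 0.77 ± 0.09 (adjusted p = 0.00197). Decr1, the dienoyl-CoA reductase needed for polyunsaturated fatty acids, read 9.89, 9.63 and 9.66 in WT on ND and 10.57, 10.71 and 10.57 in WT on HFD, and 10.06, 10.15 and 10.23 in KO on ND and 10.85, 10.72 and 10.96 in KO on HFD. The diets were apart in both genotypes, and every KO mouse was above every WT mouse on the same diet. Decr1 rose by 0.89 ± 0.10 (adjusted p = 0.000323) and 0.69 ± 0.10 (adjusted p = 0.00277). At a second probe set of Decr1 the genotypes overlapped on HFD, with KO mouse 2 at 9.54 and WT mouse 2 at 9.55. Eci1, the enoyl-CoA isomerase, read 10.37, 10.40 and 10.01 in WT on ND and 10.89, 11.07 and 10.91 in WT on HFD, and 10.34, 10.78 and 10.59 in KO on ND and 10.85, 10.81 and 10.97 in KO on HFD. The gap between the diets was wide in WT and narrow in KO. Eci1 rose in WT by 0.69 ± 0.12 (adjusted p = 0.00779) and differed by 0.31 in KO (adjusted p = 0.180).

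All 3 electron transfer genes passed in WT and none in KO. At an unadjusted p of 0.05, 2 of the 3 were higher in KO. Etfa and Etfb are the subunits of electron transfer flavoprotein, and Etfdh is the oxidoreductase that passes its electrons to ubiquinone. Etfa read 11.05, 11.04 and 11.03 in WT on ND and 11.43, 11.56 and 11.43 on HFD. In KO, Etfa read 11.18, 11.30 and 11.22 on ND and 11.14, 11.34 and 11.44 on HFD. The WT groups were apart and the KO groups overlapped, at 0.43 ± 0.08 (adjusted p = 0.0119) and 0.07 (adjusted p = 0.712). Etfdh read 9.95, 9.87 and 9.86 in WT on ND, 10.39, 10.59 and 10.64 in WT on HFD, 10.15, 10.25 and 10.28 in KO on ND, and 10.35, 10.45 and 10.56 in KO on HFD. Its diet groups were apart in both genotypes, at 0.65 ± 0.09 in WT (adjusted p = 0.00163) and 0.23 in KO (adjusted p = 0.177). Etfb read 10.96, 10.91 and 10.91 in WT on ND and 11.22, 11.38 and 11.42 in WT on HFD, and 11.01, 11.14 and 11.14 in KO on ND and 11.33, 11.26 and 11.52 in KO on HFD. Its diet groups were apart in both genotypes. Etfb rose in WT by 0.42 ± 0.09 (adjusted p = 0.0152) and differed by 0.28 in KO (adjusted p = 0.0849). No interaction term passed for these genes: the KO minus WT difference in the diet effect was −0.36 ± 0.12 for Etfa (adjusted p = 0.314), −0.42 ± 0.13 for Etfdh (adjusted p = 0.284) and −0.14 for Etfb (adjusted p = 0.734).

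**Figure D3:**
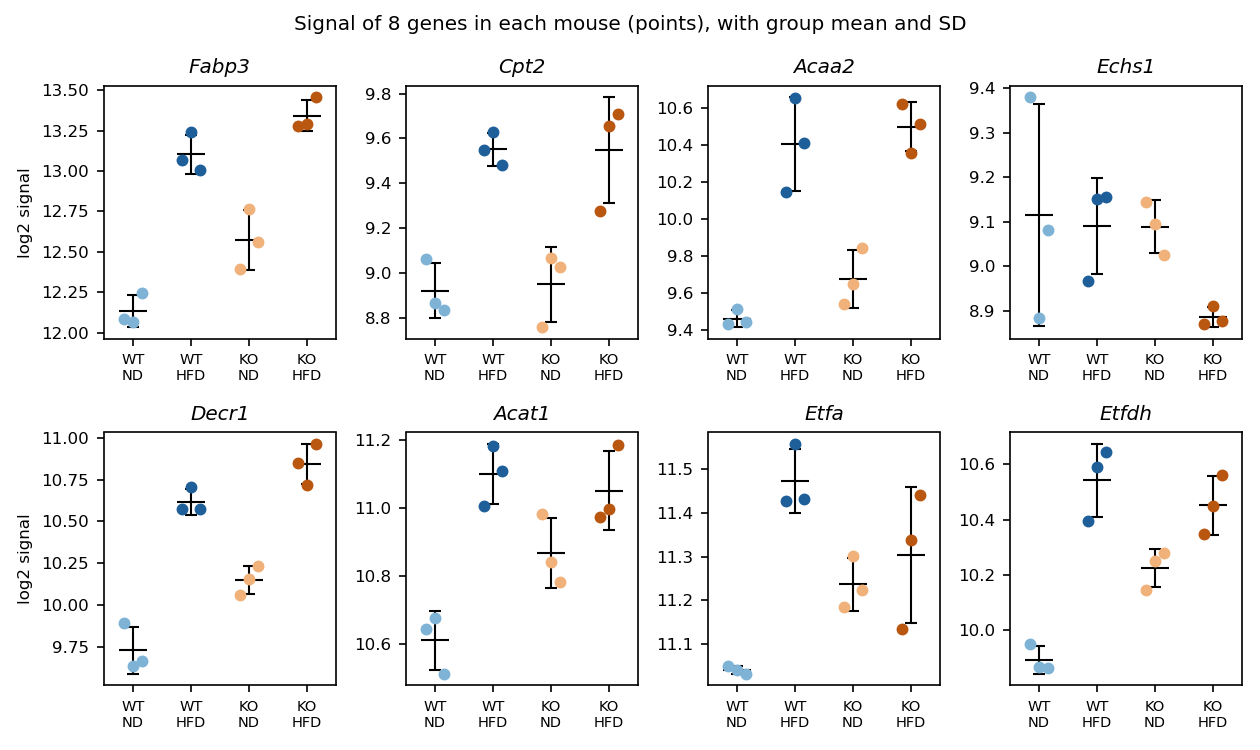
Log2 signal of 8 members in each mouse, by group, where points are mice and the black marks are the mean and SD of 3. Fabp3, Cpt2, Acaa2, Decr1 and Etfdh are separated by diet in both genotypes, Etfa and Acat1 in WT alone, and Echs1 lies lower in KO on HFD than on ND.

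Of the 5 peroxisomal genes tested, 1 rose in each genotype. That gene was Pex11a, a membrane protein of peroxisome division, which read 7.92, 7.68 and 7.59 in WT on ND and 8.35, 8.41 and 8.58 in WT on HFD, and 7.95, 7.89 and 7.86 in KO on ND and 8.24, 8.35 and 8.83 in KO on HFD. Its diet groups did not overlap in either genotype, at 0.72 ± 0.15 in WT (adjusted p = 0.0157) and 0.57 ± 0.15 in KO (adjusted p = 0.0472). Hsd17b4, the peroxisomal bifunctional enzyme, differed by 0.29 in WT and 0.32 in KO and passed in the mean of the genotypes (adjusted p = 0.0203). Its second probe set, with a mean signal of 8.59, differed by 0.08 and 0.24. That one did not pass in the mean (adjusted p = 0.197 among all probe sets in limma). Eci2, an isomerase, differed by 0.34 in WT and 0.19 in KO and passed in the mean of the genotypes (adjusted p = 0.0454). Ehhadh, the other bifunctional enzyme, read 6.50, 6.96 and 5.50 in WT on ND and 6.01, 5.62 and 6.42 in WT on HFD, and 6.04, 6.90 and 6.32 in KO on ND and 6.56, 5.80 and 6.68 in KO on HFD. Its groups overlapped throughout; its differences of −0.31 and −0.07 did not pass, nor did the thiolase Acaa1a.

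Most calls at the brightest probe sets were shared between genotypes: 11 members rose in both, 8 passed in WT alone, Lpl passed in KO alone and 14 passed in neither. Passing in one genotype and not the other does not show a difference. The interaction was tested for all 34 members and 0 passed in limma (0.141% of all genes did). At an unadjusted p of 0.05, 5 members did (14.7%), all with the smaller difference in KO (Mlycd, Acat1, Eci1, Etfa and Etfdh). Of all genes 4.87% passed that level with a negative interaction, and 10.4% in either direction. The interaction was negative for 26 of the 34, with a median of −0.13, while the median of all genes was 0.01.

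No member passed between the genotypes on either diet, though many read higher in KO on ND. On ND 0 of 34 members passed in limma, against 0.414% of all genes, and 9 were higher (26.5%, against 6.13% of all genes) and 0 lower at an unadjusted p of 0.05. The members' median difference was 0.17 and that of all genes 0.02. In 12 members, or 35.3%, every KO mouse was above every WT mouse, where 9.25% of all genes were so placed. Among these were Fabp3 (0.44, adjusted p = 0.0778), Decr1 (0.42, adjusted p = 0.0884) and Etfdh (0.33, adjusted p = 0.160). This comparison and the WT diet effect share the 3 WT mice on ND. On HFD 0 of 34 passed, against 0.732% of all genes, with 2 higher and 1 lower at an unadjusted p of 0.05 and a median difference of 0.00. Those 3 are 8.82% of the members, below the 14.8% of all genes at that level. Averaged over diets, Fabp3 (0.34 ± 0.07, adjusted p = 0.0268) and Decr1 (0.32 ± 0.07, adjusted p = 0.0326) were higher in KO at their brightest probe sets, 5.88% of the members against 0.899% of all genes. With every probe set fitted in limma, a second one of Decr1 did not pass (0.22, adjusted p = 0.181). Nor did a dim one of Fabp3, with a mean signal of 4.84 (0.20, adjusted p = 0.792). Each gene passed in 10 of 22 alternatives. Both failed with the mean of passing probe sets, without the intensity trend or with a 3′ over 5′ RNA ratio as covariate. Neither passed with median centring, nor without WT mouse 2 on ND, WT mouse 1 or 3 on HFD, KO mouse 3 on ND or KO mouse 1 or 3 on HFD, and 1 member passed without WT mouse 1 or 3 or KO mouse 2 on ND.

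**Figure D4:**
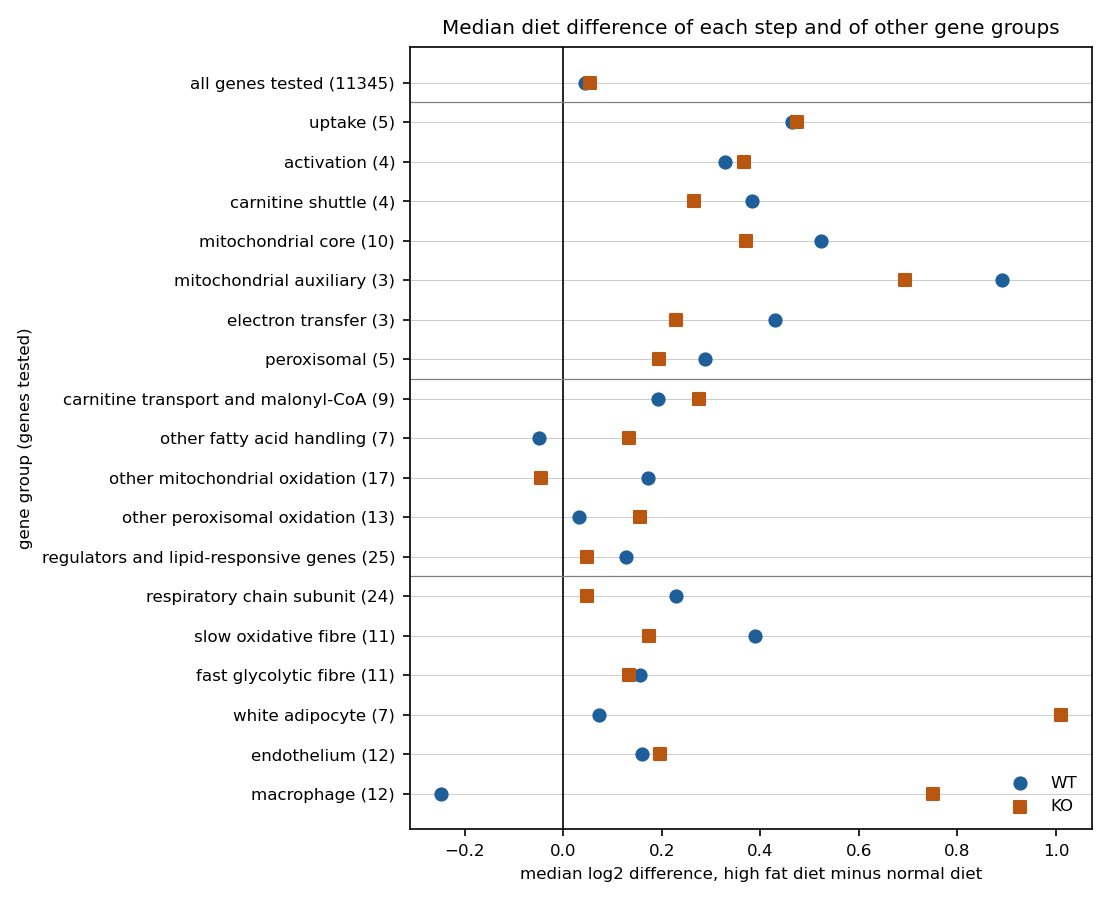
Median log2 difference with diet of each step's members and of other pathway and marker lists, in WT (circles) and KO (squares). The 3 auxiliary enzymes have the highest WT median of the members' steps at 0.89, and all tested genes lie at 0.04 in WT and 0.05 in KO.

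Of 88 other listed genes of the pathway, 71 were tested. In WT 6 rose (8.45%, against 3.07% of all genes) and 2 fell (2.82%, against 2.99%), with a median of 0.13. In KO 4 rose (5.63%, against 2.66%) and 1 fell (1.41%, against 1.88%), with a median of 0.05. Fabp5, another fatty acid binding protein, rose by 1.02 ± 0.24 in WT (adjusted p = 0.0247) and 1.29 in KO (adjusted p = 0.00947), and was higher in KO over both diets (0.76, adjusted p = 0.0392). Dbi, the acyl-CoA binding protein, rose by 0.59 (adjusted p = 0.0101) and 0.88 (adjusted p = 0.00197). Slc25a20, the carnitine-acylcarnitine carrier, rose in WT by 0.51 ± 0.09 (adjusted p = 0.00578), with 0.27 in KO. Acot1, a cytosolic acyl-CoA thioesterase, rose in WT by 1.46 ± 0.28 (adjusted p = 0.011), with 0.73 in KO. Ivd, the isovaleryl-CoA dehydrogenase of leucine breakdown, fell in KO by 0.55 (adjusted p = 0.0351). None of the 17 other mitochondrial oxidation genes passed in WT in limma, where 4 were higher and 1 lower at an unadjusted p of 0.05. No other peroxisomal gene of 13 passed in either genotype, with 2 higher and 0 lower at that level in each.

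Among regulators and lipid-responsive genes, 3 of 25 rose in WT (12%, against 3.07% of all genes) and 2 fell (8%, against 2.99%). In KO 2 rose (8%, against 2.66% of all genes). Ppargc1a, a coactivator of mitochondrial genes, rose in WT by 0.87 (adjusted p = 0.0354) and read −0.38 in KO (adjusted p = 0.362), with an interaction of −1.25 that did not pass (adjusted p = 0.197). Its relative Ppargc1b rose in both, by 0.83 and 0.90. Klf15, a transcription factor of fasting metabolism, fell in WT by 1.27 (adjusted p = 0.0142), and the deacetylase gene Sirt1 fell in WT by 0.58 (adjusted p = 0.0399). Plin2, a lipid droplet coat protein, rose in KO by 1.43 (adjusted p = 0.00893) and read −0.26 in WT. Ucp3 and Pdk4, genes known to respond to fatty acids in muscle, passed in neither genotype, at −0.12 and −0.15 in WT and −0.17 and −0.32 in KO, and were singled out after their values were seen.

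Marker transcripts of fibre types and other cell types, and a measure of RNA quality, also differed between groups. Of all tested genes 3.07% were called higher with diet in WT and 2.66% in KO. Diet groups were apart in the higher direction for 15.7% and 16.3%. At an unadjusted p of 0.05, 13.2% and 12.1% were higher and 9.8% and 7.85% lower. Of 11 slow oxidative fibre markers 3 rose in WT (27.3%) and 1 in KO (9.09%), with medians of 0.39 and 0.17. None of the 11 fast glycolytic fibre markers was called, though all read higher on HFD in both genotypes (medians 0.16 and 0.13). In WT 6 markers of each fibre list were apart between the diets (54.5%). In KO 2 of each were apart in the higher direction (18.2%), and 1 slow marker in the lower. The summed linear signal of the slow fibre markers was 32983 to 39408 in WT on ND and 45219 to 46697 on HFD, and 41805 to 48611 and 43972 to 52603 in KO. By genotype, slow fibre markers were higher in KO beside the members: on ND 1 of 11 was called (Myl3, 0.73, adjusted p = 0.037), 9.09% against 0.291% of all genes. In 8 every KO mouse on ND was above every WT mouse (72.7%, against 9.25% of all genes), with a median of 0.41. The fast fibre markers had a median of −0.01 there, with 1 of 11 apart (9.09%). Averaged over diets 4 of 11 slow fibre markers were called higher in KO (Myh7, Myl2, Myl3 and Casq2, median 0.34), 36.4% against 0.899% of all genes. Of 24 respiratory chain subunits 5 rose in WT (20.8%, median 0.23). At an unadjusted p of 0.05, 20 of them were higher and 0 lower in WT. In 20 the WT mice on HFD all exceeded those on ND, 83.3% against 67.6% of the members. In KO none rose (median 0.05, with 1 higher and 0 lower at an unadjusted p of 0.05), and 3 were apart (12.5%). White adipocyte markers passed for none of 7 in WT, where 1 was higher and 1 lower at an unadjusted p of 0.05 (median 0.07), and for 1 of 7 in KO. In KO, 5 of the 7 were higher and 1 lower at that level, and the median was 1.01. The same numbers were apart between the diets, 71.4% and 14.3% against 16.3% and 10.2% of all genes. Their summed signal was 8560 to 10385 and 9522 to 16308 in WT, and 8177 to 12203 and 16557 to 18199 in KO, on normal and high fat diet. Macrophage markers rose for 4 of 12 in KO (33.3%, with 10 higher and 0 lower at an unadjusted p of 0.05, median 0.75) and for none in WT, where 0 were higher and 1 lower at an unadjusted p of 0.05. By genotype, 7 were apart and lower in KO on ND (58.3%, against 7.72% of all genes, median −0.55), with none called. On HFD 2 were called higher in KO (16.7%, against 0.511%, median 0.53), and 1 passed with a positive interaction (8.33%, against 0.0793%). White adipocyte markers on HFD were higher in KO for 5 of 7 at an unadjusted p of 0.05 (median 0.85, against 9.06% of all genes). None of these was called, and 3 were apart (42.9%, against 11%). Of the brown adipocyte markers, Ucp1 averaged 1.77 and Elovl3 3.68, below the filter, while 3 of 5 tested rose in WT (60%, median 0.29). None of the 5 was called in KO (median 0.04), where 1 was apart in the lower direction (20%, against 10.2% of all genes). The list shares Cox7a1 with the respiratory chain subunits and Ppargc1a with the regulators. The part of these cell types and fibres in the members' differences was not tested.

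The 3′ over 5′ log2 ratio of control transcripts, which rises as RNA degrades, averaged −0.02 ± 0.09 (SD, n = 3) in WT fed ND and 0.18 ± 0.02 in WT fed HFD. In KO it averaged 0.07 ± 0.06 (range 0.01 to 0.12) for ND and 0.16 ± 0.13 (range 0.02 to 0.28) for HFD, so its diet groups overlapped there. With it as a covariate 11 members rose in WT and 9 in KO, and without WT mouse 2 or WT mouse 3 on ND 12 did. In KO the count of 12 fell to 4 when arrays were centred on their medians, to 5 without the intensity trend, to 5 without KO mouse 1 on ND or mouse 3 on HFD, and to 7 without mouse 2 or 3 on ND or mouse 2 on HFD. Median centring moved the KO median of all genes from 0.05 to −0.06 and that of the members from 0.33 to 0.21. No member was called lower with diet under any alternative tried. Hadha, Acaa2, Acat1, Ech1, Decr1 and Etfdh in WT and Acaa2, Ech1 and Decr1 in KO passed in all 23 alternatives.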

How the data were processed

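The values are log2 signals as the authors deposited them, and the submitters' processing notes name MAS5 with no version. Taken back to linear units, every array had a trimmed mean (2 to 98%) of 100, so no further scaling was applied.

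Of 45037 probe sets left after removing 64 controls, 34945 carried 1 gene symbol, 932 several and 9160 none. Probe sets with a mean above the median log2 value of 3.78 (13.8 linear) were kept, and the brightest stood for its gene, giving 11345 genes. One model over 12 arrays was fitted in limma 3.58.1 (R 4.3.3) with an intensity trend, with 7 contrasts, and p-values were adjusted by Benjamini-Hochberg over all genes of a contrast at 0.05. The script was tested on simulated data. Figures used Python 3.11.15 with matplotlib 3.10.9.

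Members, lists and comparisons were chosen with earlier results of these data known. All tested members could be named; of other pathway genes, those past the threshold with the largest differences, up to 10 per diet effect and 5 per other effect. Alternatives were other offsets, filters, normalizations, probe set rules and fits, and each mouse left out. The fit of every probe set on its own was added after seeing the data.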

Additional observations from a re-analysis of the deposited data

Results flagged for a closer look

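Plin2, the lipid droplet coat protein, was listed because its genotype groups were apart in opposite directions on the 2 diets. On normal diet it read 7.83, 8.65 and 8.35 in WT and 7.55, 7.58 and 7.77 in KO, so every KO mouse was lower. On high fat diet it read 7.66, 8.54 and 7.83 in WT and 9.58, 8.77 and 8.84 in KO, so every KO mouse was higher. The interaction was 1.70 ± 0.37 SE and did not pass (limma, adjusted p = 0.112).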

How the results depend on the processing

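With 3 mice per group, the limits are the number of arrays, unknown cohorts and a 3′ over 5′ ratio that was apart between the diets in WT and overlapped in KO. No paired analysis was possible because the labels number single mice and no number is shared between groups. Members called with diet in WT numbered 19, and 11 when that ratio was a covariate; leaving out each mouse gave 12 to 20. In KO they numbered 12, and 4 with median centring and 5 without the intensity trend; leaving out each mouse gave 5 to 13. The genotype effect on normal diet called 0 members, and 1 with array weights; leaving out each mouse gave 0 to 1. Averaged over diets it called 2, and 1 without a signal filter, and 0 with median centring, with the mean of passing probe sets, without the intensity trend or with the covariate; leaving out each mouse gave 0 to 2. The averaged diet effect, with 23 called, gave 16 to 25 under the alternatives tried, and the interaction and the genotype effect on high fat diet gave 0 throughout. Of 1263 repeats of called member differences, 1082 kept sign and call, 180 kept the sign without passing, and 1 changed sign: Cpt2 in WT, at −0.0397 with the mean of passing probe sets, where its dim second probe set enters the mean. Causes of the other changes were not tested.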
